A study of Mus musculus with 6 samples.

Results

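The cytosolic ribosomal protein genes were taken from the table by symbol: Rpl or Rps followed directly by a digit, plus Rplp0, Rplp1, Rplp2 and Rpsa, without the Rps6k kinases and without symbols that contain "-ps". The rule gave 86 of 23412 genes. Of these, 52 carry a large-subunit symbol and 34 a small-subunit symbol, and 81 averaged 1 FPKM or more over the 6 libraries and entered the test, among 12560 genes tested in all. FPKM counts fragments relative to gene length and library depth, so levels can be set against each other between genes. The label holds for nearly all members, but Rps19bp1 encodes a nucleolar protein that binds a ribosomal protein and is no subunit, and GENCODE M21 lists Rps4y2 under the name Rps4l as a transcribed processed pseudogene.

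The mutant mice had the genotype HoxB6CreERT/+; R26-YFP/+; CatnbΔex3/+ (n = 3), called activated beta-catenin in the labels, and the littermate controls had HoxB6CreERT/+; R26-YFP/+ (n = 3). CatnbΔex3 is an allele of Ctnnb1 from which Cre removes exon 3, and beta-catenin made without that exon escapes degradation. Both groups thus carried the inducible Cre and the yellow fluorescent reporter, received tamoxifen at embryonic day 16.5 through gavage of the mother, had a mixed CD1 and C57BL/6 background and were 3 weeks old. RNA was total RNA of ventral dermis from which the epidermis had been taken off after trypsin. The Cre is driven by Hoxb6 control sequences, so that cells outside its domain keep the unrecombined allele, and bulk dermis mixes both.

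The cytosolic ribosome is built of a small subunit, which reads the mRNA, and a large subunit, which joins the amino acids, and each holds ribosomal RNA and one copy of most ribosomal proteins. The acidic stalk proteins Rplp0, Rplp1 and Rplp2 recruit elongation factors. Ribosomal protein mRNAs are among the most abundant of any cell and usually begin with a cytosine and a run of pyrimidines, the 5′ terminal oligopyrimidine tract, through which mTOR signalling controls their translation. Mammalian genomes also hold many processed pseudogenes of these genes, which are intronless copies made from the mRNA and can be nearly identical to the coding sequence.

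Those copies bear on the levels of members that share sequence with them, since a read from a stretch that 2 genes share fits both. Each pair of lines below gives 60 coding bases of a member and the same bases of its closest copy in GENCODE M21 (GRCm38), read 5′ to 3′ on the strand of each gene. A capital marks a base at which the member and its copy differ, and a pair in lower case throughout is identical. The first 3 members are among the 4 whose libraries fell into 2 levels (Rps2, the other, is not shown), the next 2 were near 0, and the last 2 have an exact copy.
Rpl3, chromosome 15: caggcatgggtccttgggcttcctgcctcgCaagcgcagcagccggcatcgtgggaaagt
Rpl3-ps1, chromosome X: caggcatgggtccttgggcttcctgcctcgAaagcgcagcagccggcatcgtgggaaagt
Rpl35a, chromosome 16: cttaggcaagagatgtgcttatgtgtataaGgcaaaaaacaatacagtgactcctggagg
Gm10243, chromosome 6: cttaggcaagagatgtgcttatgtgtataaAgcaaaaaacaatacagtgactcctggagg
Rps18, chromosome 17: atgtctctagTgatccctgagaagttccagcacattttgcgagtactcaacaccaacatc
Gm11361, chromosome 13: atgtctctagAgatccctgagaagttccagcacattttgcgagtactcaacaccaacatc
Rpl26, chromosome 11: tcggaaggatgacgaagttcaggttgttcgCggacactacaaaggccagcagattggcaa
Gm15772, chromosome 5: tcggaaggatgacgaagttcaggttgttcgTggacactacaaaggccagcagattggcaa
Rpl30, chromosome 15: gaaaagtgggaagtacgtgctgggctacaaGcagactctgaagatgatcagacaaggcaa
Gm12191, chromosome 11: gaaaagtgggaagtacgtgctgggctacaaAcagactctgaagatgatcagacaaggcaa
Rps27, chromosome 3: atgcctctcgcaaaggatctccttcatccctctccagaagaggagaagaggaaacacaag
Rps27rt, chromosome 9: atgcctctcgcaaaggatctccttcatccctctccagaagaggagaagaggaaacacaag
Rps6, chromosome 4: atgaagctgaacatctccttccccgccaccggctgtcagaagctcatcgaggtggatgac
Rps6-ps4, chromosome 2: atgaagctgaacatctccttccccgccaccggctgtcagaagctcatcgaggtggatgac

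Several facts of the 6 libraries touch all members. Gene reads, recovered from the steps of the FPKM values, ran from 11839144 to 13478910 in the mutants and from 7799565 to 9675359 in the controls. The scaling factors by median of ratios, set by the middle gene of a library, came to 1.19, 0.916 and 1.05 in mutants 1 to 3, against 1.02, 0.878 and 0.9996 in controls 1 to 3. Y-linked genes were expressed in all 3 mutants and in control 3, and Xist was high in controls 1 and 2, so that library sex was not balanced between the groups. Xist was 6.47 FPKM in mutant 2, which also expressed the Y-linked genes, against 0.0827 and 0.184 FPKM in the other 2 mutants. Rn45s, the precursor of ribosomal RNA, made up 1.96%, 8.10% and 2.65% of the reads on genes in mutants, against 5.28%, 3.03% and 3.71% in controls. Ctnnb1 had 193, 136 and 168 FPKM in mutants, against 201, 163 and 183 FPKM in controls. A gene total does not show the loss of exon 3. The Wnt target Axin2 had 9.15, 8.75 and 8.90 FPKM in mutants, against 7.71, 6.31 and 7.72 FPKM in controls. On FPKM as deposited the groups did not overlap for Axin2, where 13.0% of all tested genes separated upward. Its difference missed the threshold (adjusted p = 0.461, limma with Benjamini-Hochberg). Lef1, a nuclear partner of beta-catenin and itself a Wnt target, had 14.6, 12.1 and 15.5 FPKM in mutants, against 18.2, 17.1 and 17.4 FPKM in controls. Its groups did not overlap in the opposite direction, where 2.65% of all tested genes separated. Lef1 missed the threshold too (adjusted p = 0.464, limma with Benjamini-Hochberg). Summed over the listed genes, the defining markers of fibroblasts (6 of 6 found) ran from 9434 to 13530 FPKM in mutants and from 2676 to 10400 FPKM in controls. The sums of macrophage markers (6 of 7 found) were 102, 61.1 and 66.9 FPKM in mutants, against 35.0, 22.8 and 39.2 FPKM in controls, without overlap. Those of endothelial markers (3 of 3 found) were 33.1, 26.0 and 27.0 FPKM in mutants, against 25.3, 20.6 and 24.3 FPKM in controls, also without overlap. The sums of the other 5 cell marker lists, muscle included, overlapped between the groups as those of fibroblasts did. In bulk dermis, more cells of a type and more RNA per cell cannot be told apart, and the part of these cells in the members' levels was not tested.

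No ribosomal protein gene passed the test between mutant and control dermis. With limma on log2(FPKM + 1) and Benjamini-Hochberg adjustment over all 12560 genes, 0 of 81 members were called higher and 0 lower, against backgrounds of 0.143% and 0%. The lowest adjusted p among the members was 0.344, for Rpl3. At an unadjusted p under 0.05, 1 member was higher (Rpl3, background 10.5%) and 0 were lower (background 0.748%). The other tool run, limma-voom on the recovered reads, also called 0 members. Values of all 3 mutants lay outside the range of the 3 controls for 0 of 81 members in either direction, whereas 13.0% of all tested genes separated upward and 2.65% downward. The smallest p that exact permutation of 3 against 3 libraries allows is 0.1, so these p-values rest on the variance limma pools over genes.

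The differences of the members were small and mostly above 0. The difference, mutant minus control on the log2(FPKM + 1) scale, was above 0 for 71 of 81 members and below 0 for 10, where 71.3% of all tested genes were above 0. The median difference was 0.14 over the members and 0.09 over all tested genes. The large-subunit symbols had a median of 0.12 (44 of 48 above 0) and the small-subunit symbols 0.16 (27 of 33 above 0). These values depended on the scaling: after median-of-ratios scaling the median was 0.03 over the members and -0.01 over all genes, with 52 members above 0. After quantile normalization the members' median was 0.10 (all genes -0.03). With limma-voom on recovered reads it was -0.0002 (all genes -0.04), with 40 members above 0. With library sex as a covariate it was 0.04 (all genes 0.05), with 50 above 0. Only control 3 shared the sex coded for all 3 mutants, so that fit set the mutants against control 3 alone. The share of all genes above 0 was taken only for FPKM as deposited.

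**Figure D1:**
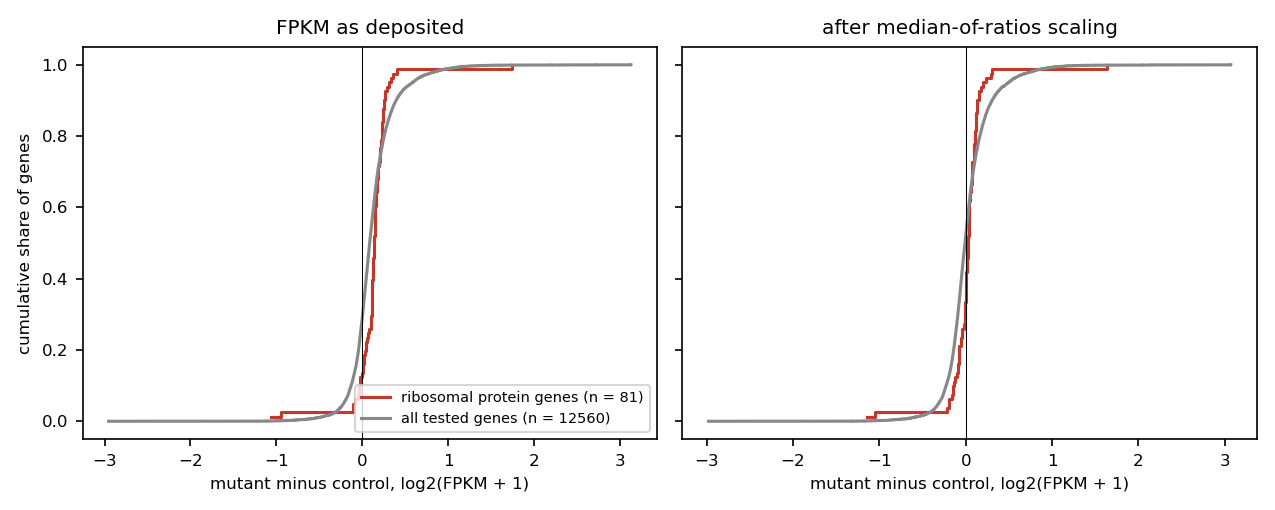
Cumulative share of genes (vertical axis) against the mutant minus control difference in log2(FPKM + 1) (horizontal axis) for the 81 tested ribosomal protein genes and all 12560 tested genes, from FPKM as deposited on the left and after median-of-ratios scaling on the right. The members' curve lies right of 0 for 71 genes on the left and for 52 on the right, and its far ends on the left are Rpl3 (1.75) and Rps2 (-1.06).

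The members' middle value differed more between libraries of 1 group than between the groups. Relative to the control mean, the median member stood at 0.46, -0.17 and 0.17 (log2) in mutants 1 to 3, against 0.08, -0.19 and 0.12 in controls 1 to 3. Over all tested genes the same medians were 0.25, -0.06 and 0.10 in mutants, against 0.07, -0.11 and 0.04 in controls. Mutant 1 was thus the highest library, and mutant 2 and control 2 were both low. After median-of-ratios scaling the members still stood at 0.16, -0.10 and 0.06 in mutants, against 0.00, -0.06 and 0.07 in controls. Members held 2.11%, 1.65% and 2.02% of gene reads in mutants, against 1.97%, 1.86% and 1.91% in controls. Leaving out mutant 1 moved the members' median difference to -0.006 and that of all tested genes to 0.01. Leaving out mutant 2, the library with both Xist and Y-linked RNA, moved them to 0.30 and 0.17. Leaving out control 2 moved them to 0.05 and 0.03.

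**Figure D2:**
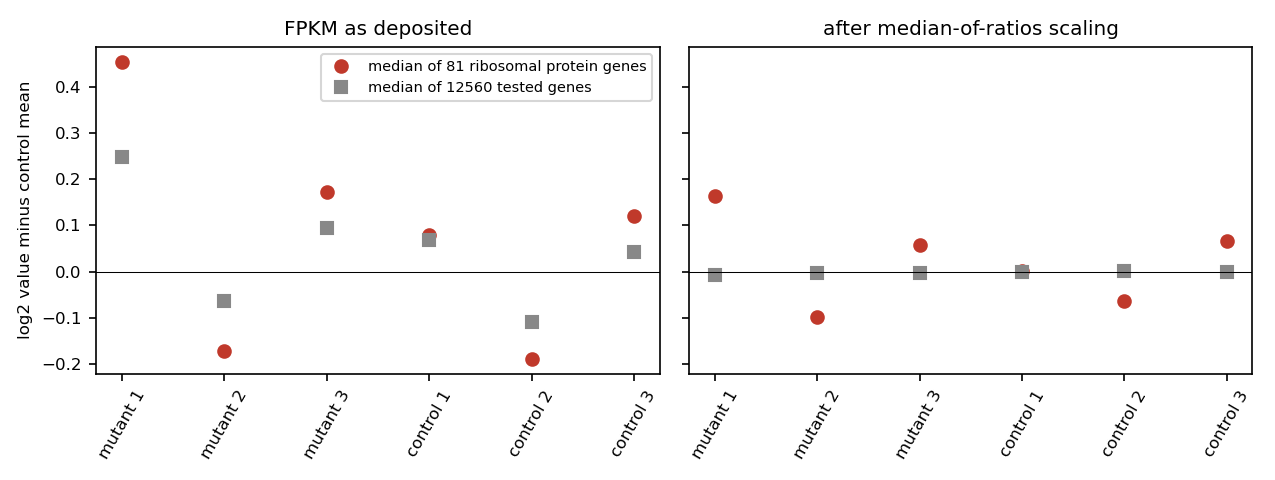
Median log2 value relative to the control mean (vertical axis) in each of the 6 libraries for the 81 tested members (circles) and all 12560 tested genes (squares), from FPKM as deposited on the left and after median-of-ratios scaling on the right. Mutant 1 is highest for the members in both panels (0.46 and 0.16), while mutant 2 and control 2 are below 0.

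On FPKM as deposited, mutant 1 was the highest library for 64 of 81 members, and for 64.1% of all tested genes. After median-of-ratios scaling it was the highest for 49 members and for 21.4% of all genes. The lowest library was mutant 2 for 36 members and 35.2% of all tested genes, and control 2 for 41 members and 47.1% of all. The median within-group SD was 0.27 (log2) over the members and 0.18 over all tested genes as deposited, and 0.15 and 0.13 after scaling. In mutant 2, where members took the smallest share of gene reads, Rn45s was highest. With Rn45s reads left out, members held 2.155%, 1.797% and 2.076% of gene reads in mutants, against 2.076%, 1.913% and 1.985% in controls. Mutant 2 was still the lowest. Muscle markers were lowest in control 2, at 267 FPKM summed over 5 genes, against 880 to 1137 FPKM in the other controls, and 568 to 1238 FPKM in mutants. The part of rRNA reads or of muscle in the members' levels was not tested.

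The members highest by FPKM were stalk and core proteins. Rplp1, a stalk protein, had 910, 575 and 708 FPKM in mutants, against 639, 528 and 798 FPKM in controls. Rpl41, the smallest ribosomal protein, had 867, 553 and 721 FPKM in mutants, against 655, 489 and 722 FPKM in controls. In both, mutants and controls overlapped. The X-linked Rpl39, a large-subunit protein at the exit tunnel, had 804, 491 and 640 FPKM in mutants, against 524, 531 and 521 FPKM in controls. Rps4x, an X-linked small-subunit protein, had 773, 481 and 612 FPKM in mutants, against 552, 503 and 560 FPKM in controls. Rplp0, the base of the stalk, had 737, 451 and 555 FPKM in mutants, against 554, 458 and 571 FPKM in controls. In each of these 5 genes mutant 1 was highest, and mutant 2 was lowest in 3 of them (Rpl39, Rps4x and Rplp0). Their differences ran from 0.12 for Rplp0 to 0.27 for Rpl39, with SE of 0.31 for both. Over all 86 members, mean FPKM ran from 0 to 693 with a median of 88.4, and 42 members were at or above 100 FPKM while 28 were under 25 FPKM.

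**Figure D3:**
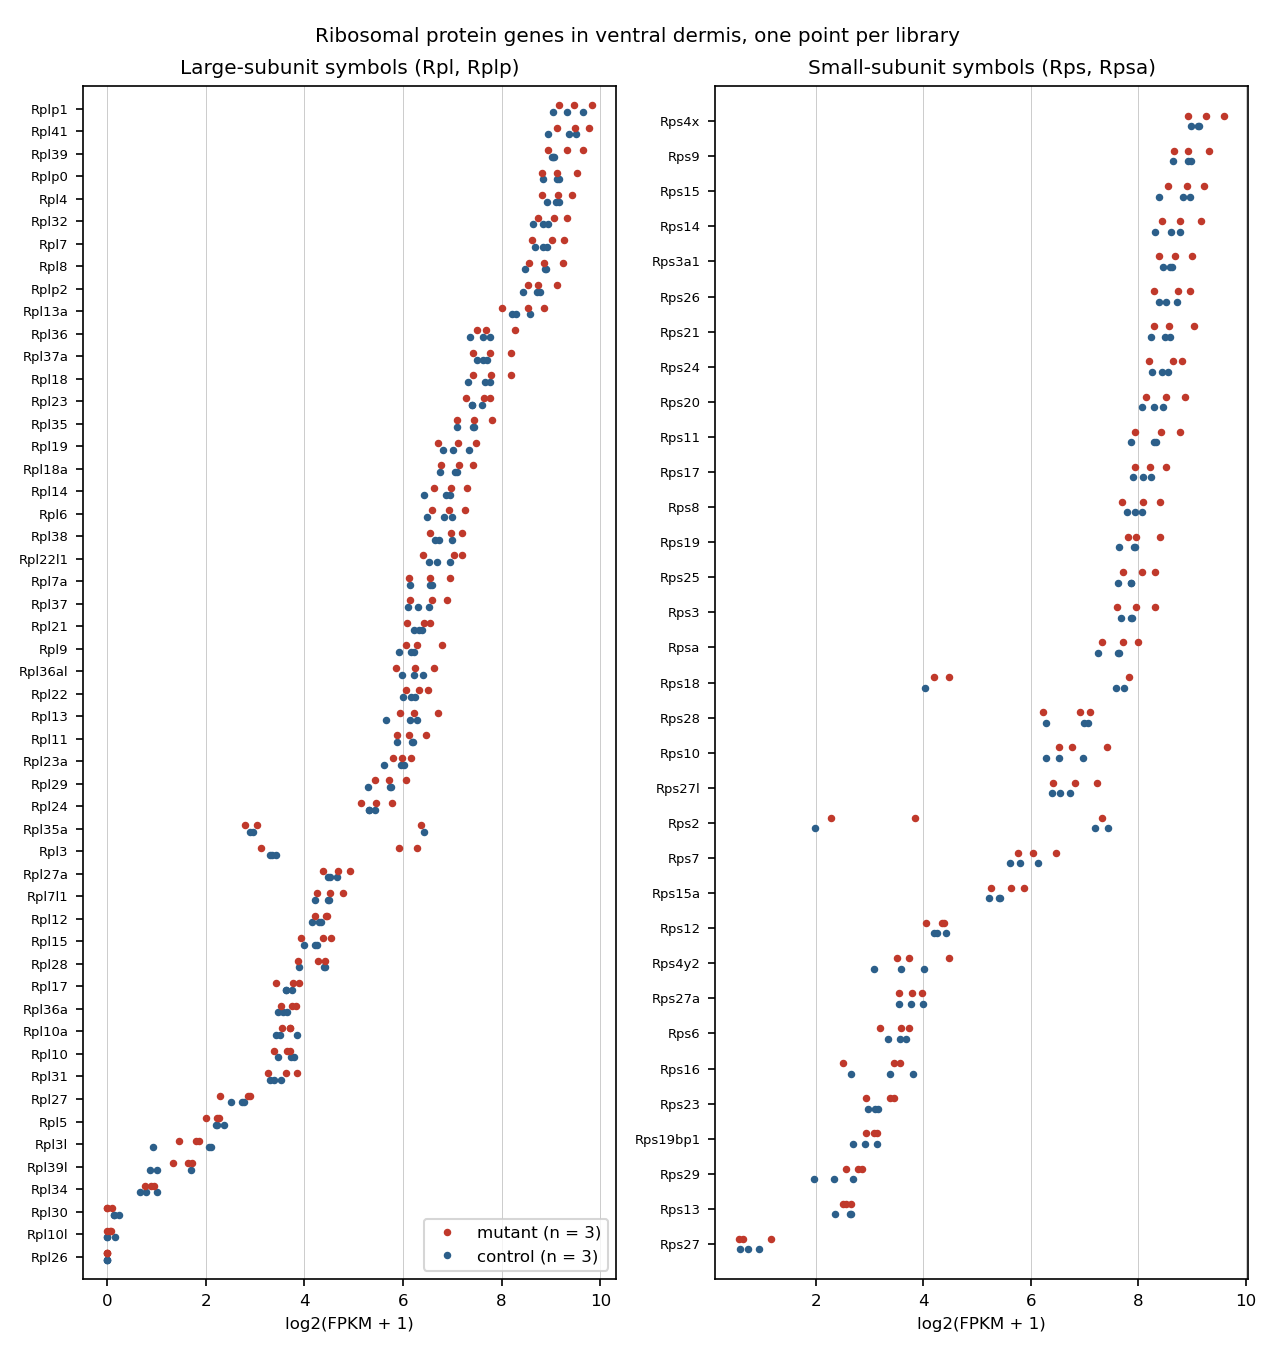
Level of 85 of the 86 members as log2(FPKM + 1) (horizontal axis), 1 point per library, mutants above controls within a gene, with large-subunit symbols on the left and small-subunit symbols on the right, ordered by level. Mutant and control points overlap for each tested member drawn, and Rpl3, Rpl35a, Rps18 and Rps2 show points at 2 separate levels.

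In 4 members the libraries fell into 2 levels. A gene was counted so when its sorted log2(FPKM + 1) values had a gap of at least 2 with at least 2 libraries on each side, a rule chosen after the values were seen. It held for 4 of 81 members and 10 of 12560 tested genes (0.0796%). The other 6 were Xist, the Y-linked Ddx3y, Eif2s3y, Kdm5d and Uty, and the small RNA gene Rprl3. The next members under the limit were Rps16, with a gap of 0.71, Rps28 with 0.62 and Rpl7a with 0.41.

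Rpl3, a large-subunit protein near the peptidyl transferase centre (chr15:80077791-80091868), had 77.1, 7.68 and 59.4 FPKM in mutants, against 8.93, 9.73 and 9.14 FPKM in controls. Mutants 1 and 3 were high, and mutant 2 lay with the controls. The recovered reads were 2054, 223 and 1720 in mutants, against 207, 210 and 186 in controls. The difference was 1.75 (SE 0.66) with an unadjusted p of 0.026 and an adjusted p of 0.344 by limma. Without mutant 2 it was 2.74 with an adjusted p of 0.006, and without mutant 1 or mutant 3 it was 1.16 or 1.34. Its adjusted p ran from 0.006 to 0.9999 over the settings tried, and only the fit without mutant 2 called it. The part of the Xist and Y-linked RNA found together in mutant 2 in these values was not tested.

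Rpl35a, a large-subunit protein (chr16:33056453-33060189), had 5.99, 81.2 and 7.24 FPKM in mutants, against 6.79, 84.5 and 6.50 FPKM in controls. It was high in 1 library of each group, mutant 2 and control 2. These are the libraries in which Rprl3 was high, with 57.3 and 588 FPKM. The difference was -0.03 (SE 1.07). Rpl35a was named after its values were seen.

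Rps18, a small-subunit protein of the head domain (chr17:33951999-33956001), had 17.4, 21.4 and 227 FPKM in mutants, against 210, 15.4 and 190 FPKM in controls. Rps2, a small-subunit protein near the mRNA entry (chr17:24718116-24721929), had 3.84, 13.4 and 159 FPKM in mutants, against 146, 2.97 and 172 FPKM in controls. Both were high in mutant 3, control 1 and control 3 and low in the other 3 libraries. The differences were -0.94 (SE 1.10) for Rps18 and -1.06 (SE 1.52) for Rps2, with adjusted p of 0.846 and 0.883 by limma. The splits of Rpl35a, Rps18 and Rps2 did not follow the groups, and that of Rpl3 did except in mutant 2. No split followed library sex as Xist and the Y-linked genes showed it.

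**Figure D4:**
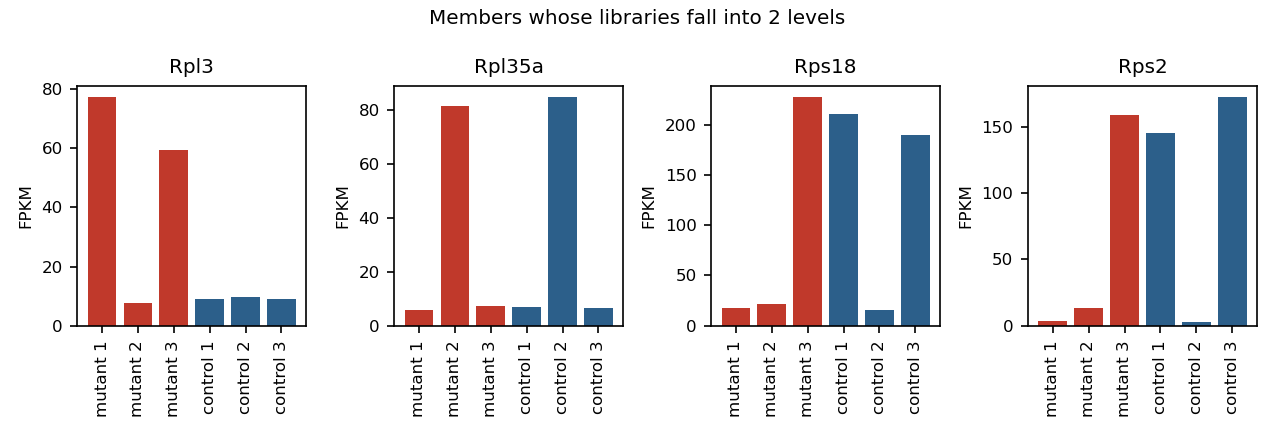
FPKM (vertical axis, from 0) of Rpl3, Rpl35a, Rps18 and Rps2 in each library, 1 bar per library, mutants left of controls. The high libraries are mutants 1 and 3 for Rpl3, mutant 2 and control 2 for Rpl35a, and mutant 3 with controls 1 and 3 for both Rps18 and Rps2.

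These 4 genes have close copies, as many other members do. Over all members, 19 have a whole copy without mismatch and 37 have one with 1 to 4 mismatches. Rps2 is in neither class. Over the whole coding sequence, aligned without gaps, Rpl3 differed from Rpl3-ps1 at 2 of 1209 bases, Rpl35a from Gm10243 at 1 of 330, Rps18 from Gm11361 at 3 of 456 and Rps2 from its closest copy at 5 of 879. Rps2 shared at least one 50-base coding window with 71 other genes, all annotated as pseudogenes, and Rpl3 with 26. How reads that fit several places were assigned is not given in the sources used here, so the levels of members with close copies are uncertain, and the part of the copies in the 2 levels was not tested.

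Levels differed with the closest copy. The median member shared 90.3% of its 50-base coding windows with another annotated gene, and 30 members shared all of them. Among the 19 members with a whole copy without mismatch, the median level was 11.5 FPKM and 15 were under 25 FPKM. The exceptions were Rpl13, Rpl38, Rpl41 and Rps28. Among the 37 members with 1 to 4 mismatches the median was 90.2 FPKM, with 7 under 25 FPKM. Among the 29 with 5 or more mismatches, or with no whole copy aligned, it was 315 FPKM, with 5 under 25 FPKM. Those 5 were the paralogs Rpl10l, Rpl39l, Rpl3l and Rpl7l1 and the non-ribosomal Rps19bp1. Rps4y2 has no annotated coding sequence and was left out.

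**Figure D5:**
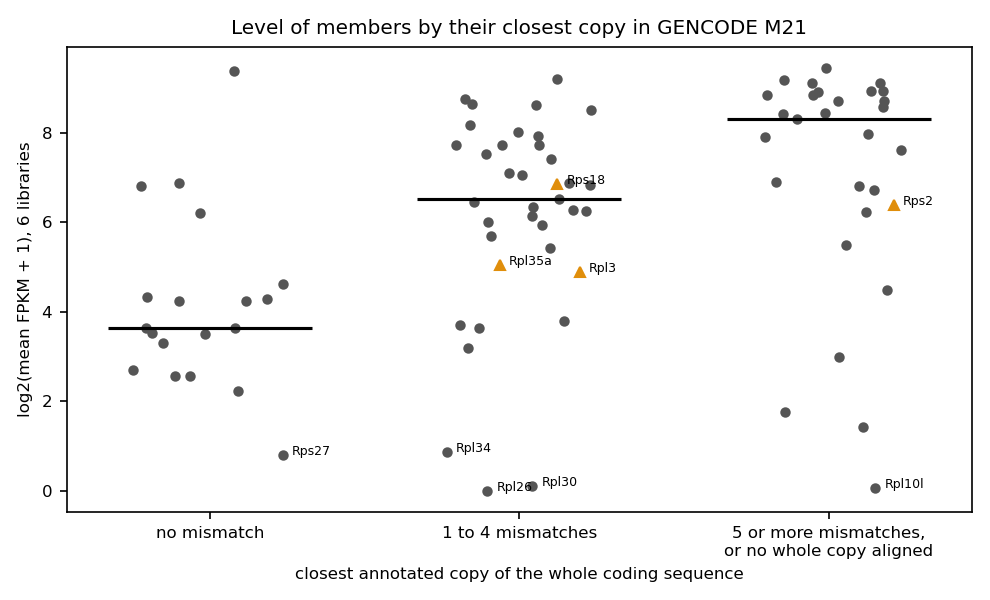
Level as log2(mean FPKM + 1) over the 6 libraries (vertical axis) of 85 members, grouped by the mismatches of their closest whole coding copy in GENCODE M21, with 1 point per member and a line at each group's median. The medians correspond to 11.5, 90.2 and 315 FPKM for no mismatch, 1 to 4 mismatches, and 5 or more or no whole copy, and triangles mark the 4 members at 2 levels.

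These classes and the limit of 25 FPKM were set after the values were seen. The simpler measure, the share of windows found elsewhere, had a Spearman correlation with mean FPKM of -0.38 over 85 members at 50 bases and of -0.47 over 84 members at 100 bases. The points share the same 6 libraries, so these are descriptions. Only genes sharing at least one 50-base window were searched for a whole copy, and a copy with an insertion or deletion counts as poorly aligned.

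Of the 5 members under 1 FPKM, 4 encode standard ribosomal proteins. Rpl26, a large-subunit protein, was listed at 0 in all 6 libraries. Rpl30 had 0, 1 and 0 recovered reads in mutants, against 2, 1 and 1 in controls. Rpl34 had 0.942, 0.863 and 0.709 FPKM in mutants, against 0.590, 0.739 and 1.01 FPKM in controls. Rps27, a small-subunit zinc-finger protein, had 1.24, 0.570 and 0.490 FPKM in mutants, against 0.511, 0.658 and 0.931 FPKM in controls. Its copy Rps27rt matched all 252 coding bases. The values near 0 of these 4 genes are given as listed and not as absence of expression, and Rps27 has a paralog, Rps27l. Rps6, the small-subunit protein phosphorylated downstream of mTOR, also has an exact copy over its 747 coding bases and had 12.4, 8.10 and 11.1 FPKM in mutants, against 11.8, 10.9 and 9.17 FPKM in controls. Rpl26, Rpl30, Rpl34 and Rps6 were named after their values were seen.

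Members that share little sequence with other genes overlapped between mutants and controls as well. The 16 members that shared under 50% of their windows included 15 tested, all 15 with a difference above 0, from 0.004 to 0.36 with a median of 0.16. After median-of-ratios scaling their median was 0.05.

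The remaining members with the smallest p or the largest differences did not pass the test. Rps29, a small zinc-binding protein of the small subunit, had 5.90, 4.93 and 6.27 FPKM in mutants, against 4.07, 2.91 and 5.49 FPKM in controls (difference 0.40, SE 0.18, adjusted p = 0.457 by limma). Control 3 lay above mutant 2. Rps10 had 170, 91.4 and 107 FPKM in mutants, against 90.4, 76.7 and 125 FPKM in controls, and mutant 1 stood apart. Rps4y2 had 21.2, 10.4 and 12.3 FPKM in mutants, against 15.2, 7.50 and 11.02 FPKM in controls. Rpl9 had 110, 65.7 and 77.1 FPKM in mutants, against 70.2, 59.5 and 73.4 FPKM in controls. Rps15a had 57.9, 37.4 and 48.7 FPKM in mutants, against 42.1, 36.5 and 41.4 FPKM in controls. In Rps10, Rpl9 and Rps15a mutant 1 was highest and mutant 2 lay within the control range.

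Below 0 and outside the 2-level genes, Rps16 had the lowest difference at -0.11, with 10.8, 4.65 and 9.94 FPKM in mutants, against 9.36, 5.33 and 13.0 FPKM in controls. Rpl5, which binds the smallest ribosomal RNA on its way into the large subunit, had 3.85, 3.02 and 3.66 FPKM in mutants, against 3.67, 4.18 and 3.65 FPKM in controls (difference -0.10). The X-linked Rpl10, which is added late to the large subunit, had 12.0, 9.43 and 11.5 FPKM in mutants, against 12.8, 10.1 and 12.2 FPKM in controls (difference -0.08). The 95% intervals of these 3 differences ran from -0.85 to 0.63 for Rps16, from -0.38 to 0.17 for Rpl5 and from -0.41 to 0.25 for Rpl10. Rps13 had 5.27, 4.67 and 4.93 FPKM in mutants, against 5.25, 5.31 and 4.14 FPKM in controls. The X-linked Rpl36a had 13.3, 10.5 and 12.5 FPKM in mutants, against 9.97, 11.6 and 10.8 FPKM in controls. All 5 of these genes have an exact whole copy.

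Paralogs were measured beside their partners. Rpl3l, the muscle form of Rpl3, had 2.50, 2.61 and 1.74 FPKM in mutants, against 3.17, 0.909 and 3.31 FPKM in controls (difference 0.004). Its lowest library, control 2, was also that with the lowest muscle markers. Rpl22l1 had 145, 84.0 and 130 FPKM in mutants, against 91.7, 103 and 122 FPKM in controls, and its partner Rpl22 had 90.2, 65.6 and 78.9 FPKM in mutants, against 74.4, 62.9 and 70.3 FPKM in controls. Rps27l, a p53-inducible form of Rps27, had 148, 84.3 and 113 FPKM in mutants, against 92.5, 83.6 and 105 FPKM in controls. Rpl36al had 98.2, 56.8 and 74.8 FPKM in mutants, against 74.1, 61.7 and 84.0 FPKM in controls. Each of these pairs of groups overlapped.

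Rpl7l1 had 26.6, 18 and 22.0 FPKM in mutants, against 21.6, 17.7 and 21.3 FPKM in controls. Its partner Rpl7 had 615, 393 and 516 FPKM in mutants, against 481, 410 and 456 FPKM in controls. Rpl39l had 2.29, 1.51 and 2.10 FPKM in mutants, against 2.26, 1.02 and 0.831 FPKM in controls (difference 0.36, SE 0.22, adjusted p = 0.607 by limma), on 10 to 36 recovered reads per library. Control 1 lay within the mutant range of Rpl39l. Rpl10l, which is known from testis, had 0 to 2 recovered reads per library. Rps19bp1 had 7.45, 6.66 and 7.81 FPKM in mutants, against 6.58, 5.47 and 7.82 FPKM in controls. Of the ubiquitin and ubiquitin-like fusion genes, Rps27a had a difference of 0.004, and Fau, which encodes a small-subunit protein and lies outside the symbol rule, had 8.78, 5.35 and 7.56 FPKM in mutants, against 6.34, 4.72 and 7.22 FPKM in controls.

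Promoters were read from RefSeq (GRCm38.p6), which matched 65 members, from 250 bases before to 50 after the start. A cytosine at the start followed by at least 4 pyrimidines was found at 13 members (20%) and at 3.01% of 27025 genes. The lines below give, for 5 of the 13, the 20 bases before and the first 10 from the RefSeq start on the gene's strand, with the tract in capitals. They are shown because this tract is the translational feature described above for such mRNAs. The other matched members had no such tract at a RefSeq start.
Rpl15, chr14:18270977-18271006, minus strand: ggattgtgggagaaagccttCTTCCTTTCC
Rpl35, chr2:39005122-39005151, minus strand: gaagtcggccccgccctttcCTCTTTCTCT
Rps10, chr17:27635235-27635264, minus strand: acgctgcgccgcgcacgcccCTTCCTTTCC
Rps18, chr17:33955656-33955685, minus strand: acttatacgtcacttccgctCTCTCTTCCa
Rpl35a, chr16:33056462-33056491, plus strand: gcgcggcggggcttgccttcCTCTTTCCgc
Within the same windows and on both strands, the letters CCGGAAG, a core that ETS factors bind, were found in 40% of members' promoters and 9.93% of all. The E-box CACGTG, bound by Myc, was found in 9.23% and 8.09%. TATAAA was found in 10.8% and 15.7%, and ATCAAAG, bound by TCF/LEF factors, in 0 of 65 and 4.29%. These are matches of letters and not sites, and the annotated start decides whether a tract is seen.

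Other genes of ribosome production and use gave no call either. In each of 6 lists 0 genes passed the test over all genes by limma. Of all tested genes, 0.143% were called higher and 0% lower. Translation factors had a median difference of 0.04 (43 tested, 28 above 0), ribosome biogenesis genes -0.002 (54 tested, 26 above 0), subunits and cofactors of RNA polymerases I and III 0.03 (31 tested, 20 above 0), Myc and mTOR regulators 0.03 (24 tested, 13 above 0) and snoRNA host RNAs 0.02 (10 tested, 5 above 0). Mitochondrial ribosomal proteins, which serve the separate ribosome of that organelle, had 0.13 (75 tested, 64 above 0). The median over all tested genes was 0.09. After median-of-ratios scaling the first 5 lists were at or under -0.06 and the mitochondrial list was at 0.02. Unadjusted p under 0.05 were seen for 1 polymerase gene and 2 regulators and for 0 genes of the other 4 lists. Over all tested genes the shares were 10.5% higher and 0.748% lower.

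Among the extremes of these lists were Pabpc1, the poly(A)-binding protein, at -0.25, Eif4ebp1, a translation repressor controlled by mTOR, at 0.35, and Mxd4, a Myc antagonist, at 0.54. Their adjusted p were 0.754, 0.524 and 0.320 by limma. Pabpc1 had 131, 116 and 143 FPKM in mutants, against 144, 152 and 166 FPKM in controls, with groups that did not overlap. Of all tested genes, 2.65% separated downward. Eef1a1, the main elongation factor, had 2611, 1611 and 2123 FPKM in mutants, against 1970, 1650 and 2052 FPKM in controls. Myc, a driver of ribosome biogenesis, had 10.2, 8.07 and 7.99 FPKM in mutants, against 8.06, 6.70 and 9.65 FPKM in controls.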

How the data were processed

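The authors deposited 1 FPKM value per gene and library, 23412 genes in 6 libraries (3 mutant, 3 control), made with a stranded total RNA kit per the labels' protocols. GSNAP (an aligner), HTSeq (a counter) and build mm10 appear, without versions, per the submitters' processing notes, and for the annotation and for reads that fit several places the sources used here give nothing. The labels speak of mice but do not tie each library to its own mouse, so p-values measure the spread between these libraries, which may be technical. FPKM values were compared as log2(FPKM + 1), which understates changes of low genes, for genes with mean FPKM of at least 1, by limma 3.58.1 with an intensity trend (R 4.3.3, two-sided, Benjamini-Hochberg, threshold 0.05). Whole reads were recovered from the steps of the deposited FPKM (relative tolerance 3e-09) and served for depth and for limma-voom. Both steps were tested on simulated data.

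The members and lists were chosen with earlier results of these data known. Named members were, by rule, the 5 highest and 5 lowest by level among those tested, the 5 largest and 5 smallest differences, the 5 smallest p, X-linked members, paralogs with their partners, Rps19bp1, and the 2 extremes at each end of each list, of which 3 genes are printed with their values. Values of 1 member are not reported here, though it is in all counts. Coding windows and whole copies came from GENCODE M21 transcripts, with 1 principal transcript per gene, and were compared on the sense strand without gaps. The transcript choice and the copy classes were settled after levels had been seen. Python 3.11.15 was used for these steps. Alternatives were 3 other scalings or tests, another pseudocount, 2 filters, a sex covariate, a replicate block and each library left out.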

Additional observations from a re-analysis of the deposited data

How the results depend on the processing

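The count of members called was 0 under a pseudocount of 0.1, no filter, a filter at mean FPKM 5, median-of-ratios scaling, quantile normalization, a sex covariate, a replicate block and limma-voom, and ran from 0 to 1 when each library was left out, the 1 being Rpl3 without mutant 2. The members' median difference, 0.14, was 0.15, 0.14 and 0.14 under the pseudocount and the 2 filters. It was 0.03 and 0.10 under the scalings, 0.04 with sex and -0.0002 with limma-voom. Every difference with sex is against control 3 alone, the only control coded like the mutants. The members' median ran from -0.006 to 0.30 when each library was left out. It was 0.14 without the 4 members at 2 levels, an alternative chosen after seeing the data. The median over all genes was -0.01 and -0.03 under the scalings, 0.05 with sex and -0.04 with limma-voom. It ran from 0.01 to 0.17 when each library was left out. The cause of the 2.74 for Rpl3 without mutant 2 was not tested. Over all genes, calls were 18 higher and 0 lower, against 9 (pseudocount), 4 (no filter), 28 and 32 (scalings), 10 and 1 lower (sex), 181 and 4 lower (limma-voom), and 3 to 189 higher when each library was left out. Of the 55 named genes with a test, none called, the sign differed for 4 under median-of-ratios scaling, 4 under quantile normalization, 12 with sex, 5 with limma-voom, 9 without mutant 1, 7 without mutant 2 and 1 to 3 without each other library.

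Over genes, deviations of same-numbered mutants and controls correlated at 0.0016, 0.037 and -0.082. A shift of a whole library does not enter such a correlation, so it cannot decide whether replicate numbers pair the libraries. Rpl35a was high only in the libraries numbered 2. With the replicate block the members' median was 0.14 and 0 members were called. Over all genes 67 were called higher and 1 lower with the block, against 18 and 0 without it. Depth limits the low members, such as Rpl30 with 0 to 2 reads per library. Levels of members with exact or near-exact copies depend on how reads were assigned, which could not be varied here.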
